A study of Mus musculus with 11 samples.

Results

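A set of 9 genes that mark red blood cell and platelet precursors were followed in mouse progenitor B cells and B cell leukemias. They were chosen by name, as 9 of the 23071 gene identifiers in the table. The 5 erythroid genes were Car1, Car2, Alas2, Klf1 and Rhag, and the 4 megakaryocyte and platelet genes were Pf4, Ppbp, Itga2b and Gp9. RNA was sequenced in 11 libraries, all from C57BL/6 mice. The 5 leukemia libraries were leukemic B cells of genotype Pax5+/- x Ebf1+/-, from lymph node cell suspensions of 1 mouse each. The 3 Ebf1+/- libraries and the 3 wild-type libraries were bone marrow progenitor B cells, purified on columns and pooled from 3 to 7 mice per library. The leukemias and the Ebf1+/- cells thus shared the loss of 1 Ebf1 copy, and wild-type cells carried neither mutation.

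Red cells and platelets arise in the bone marrow from progenitors that share the transcription factor GATA1. Erythroid precursors then depend on KLF1, which activates genes of heme synthesis and of the red cell membrane, while megakaryocytes make the platelet adhesion receptors and the chemokines stored in platelet granules. Pax5 and Ebf1, by contrast, establish B cell identity, and neither lineage described here is a product of the B cell pathway.

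Levels are given as FPKM, the fragments counted per length of transcript and size of library, so that levels of different genes can be set side by side. Library totals ran from 8506680 to 15313920 reads. Ebf1 was at 54.3 to 81.4 FPKM in leukemias, 43.4 to 86.5 FPKM in Ebf1+/- cells and 83.4 to 112 FPKM in wild-type cells, and Pax5 at 71.4 to 162 FPKM in leukemias, 89.0 to 254 FPKM in Ebf1+/- cells and 175 to 312 FPKM in wild-type cells. These levels do not tell the alleles apart. B cell markers were abundant in every library. The summed level of 12 progenitor B cell markers was 3773 to 4870 FPKM in leukemias, 2025 to 6677 FPKM in Ebf1+/- cells and 3220 to 5798 FPKM in wild-type cells. One library stood apart for the platelet genes, Ebf1+/- replicate 3, which also had the lowest B cell marker sum (2025 FPKM), and results that rest on it are given with and without it. Wild-type replicate 2 and Ebf1+/- replicate 2 were the closest pair between those groups, at a correlation across genes of 0.989 against at most 0.984 within a group, and a mislabelled library was not tested.

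Promoter windows of 300 bases (250 before and 50 after the RefSeq start, GRCm38.p6) were found for 7 of the 9 genes. Each window found matched a GATA, KLF or ETS motif, of factors known in these lineages. The share of all windows that match any of these was not computed, so this is not read as a trait of these genes. The windows of 5 genes, 3 erythroid and 2 platelet, are printed as examples. They lie at chr8:84901732-84902031 (Klf1, plus strand), chr17:40810899-40811198 (Rhag, plus strand), chrX:150547167-150547466 (Alas2, plus strand), chr5:90772185-90772484 (Pf4, plus strand) and chr11:102469834-102470133 (Itga2b, minus strand). Capitals mark matches on either strand to the GATA motif (AGATAA or TGATAA) and to the KLF motif (CCNCNCCC).
Klf1: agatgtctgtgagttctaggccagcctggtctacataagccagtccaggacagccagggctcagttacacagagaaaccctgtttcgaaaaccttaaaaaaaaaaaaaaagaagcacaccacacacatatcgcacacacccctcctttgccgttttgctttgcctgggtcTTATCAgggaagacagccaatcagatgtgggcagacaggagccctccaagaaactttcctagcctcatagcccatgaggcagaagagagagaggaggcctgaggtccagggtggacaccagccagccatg
Rhag: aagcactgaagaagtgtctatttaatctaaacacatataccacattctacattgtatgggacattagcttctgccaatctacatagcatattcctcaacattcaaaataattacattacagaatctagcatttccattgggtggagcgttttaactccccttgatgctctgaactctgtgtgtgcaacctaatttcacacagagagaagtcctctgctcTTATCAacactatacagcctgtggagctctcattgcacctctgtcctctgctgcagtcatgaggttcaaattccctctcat
Alas2: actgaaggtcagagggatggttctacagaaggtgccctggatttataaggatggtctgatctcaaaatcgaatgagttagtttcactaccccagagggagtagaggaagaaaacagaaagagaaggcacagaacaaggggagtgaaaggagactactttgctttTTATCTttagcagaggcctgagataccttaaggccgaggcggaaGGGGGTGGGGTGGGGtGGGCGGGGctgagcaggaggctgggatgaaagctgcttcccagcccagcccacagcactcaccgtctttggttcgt
Pf4: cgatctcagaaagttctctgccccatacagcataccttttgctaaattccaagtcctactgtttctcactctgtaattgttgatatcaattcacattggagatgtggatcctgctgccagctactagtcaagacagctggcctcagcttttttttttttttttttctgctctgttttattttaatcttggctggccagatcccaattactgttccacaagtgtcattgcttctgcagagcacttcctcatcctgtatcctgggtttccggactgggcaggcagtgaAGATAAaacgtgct
Itga2b: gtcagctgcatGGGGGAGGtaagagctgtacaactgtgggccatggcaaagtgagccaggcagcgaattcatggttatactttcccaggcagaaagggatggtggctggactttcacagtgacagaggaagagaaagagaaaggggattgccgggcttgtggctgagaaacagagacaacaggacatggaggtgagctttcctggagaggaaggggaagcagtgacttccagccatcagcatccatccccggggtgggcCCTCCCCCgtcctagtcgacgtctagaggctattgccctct
The GATA letters stood in 4 of the 7 windows, in Klf1 at -80, Rhag at -31, Alas2 at -86 and Pf4 at +37 from the start. They were found in 18.6% of all 32851 windows of this length. KLF letters were in 3 of the 7 (Alas2, Itga2b and Gp9), where Alas2 held 4 matches, some of which overlap, against 49.5% of all windows. The ETS motif GGAAGT, searched on both strands and not capitalised, was in the windows of Pf4, Ppbp, Itga2b and Gp9 and in 23.8% of all windows. A match describes letters in this window and is not a shown binding site.

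In leukemias both gene groups were close to absent, with Car2 as the exception. Of the 9 genes, 8 were called lower in leukemia than in wild-type cells (limma on log2(FPKM + 1), Benjamini-Hochberg adjusted p under 0.05), where 24.1% of the 10968 genes tested were called lower and 44.8% in either direction. Against Ebf1+/- cells, 9 of 9 were called lower, where 12.3% of 11161 genes were and 21.6% were called in either direction. The median log2 fold change of the 9 genes was -4.65 against wild-type cells and -4.72 against Ebf1+/- cells, beside medians of -0.04 and -0.02 over all genes tested. Every leukemia lay below every wild-type library for 8 of the 9 genes (25.1% of all genes did) and below every Ebf1+/- library for 9 of the 9 (16.2% of all genes). These comparisons share the leukemia libraries and are not independent. All 9 genes passed the filter on low values (a mean of at least 1 FPKM), 8 of them only through the progenitor libraries, so the counts describe the genes and are no separate support. Genotype, leukemic state, tissue, purification and pooling differed together between leukemias and progenitors and cannot be told apart. Between leukemias and Ebf1+/- cells the alignment tools in the submitters' processing notes differed as well, and these cannot be told apart from the rest. In such bulk samples, fewer cells of a type and less RNA per cell cannot be told apart either.

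**Figure D1:**
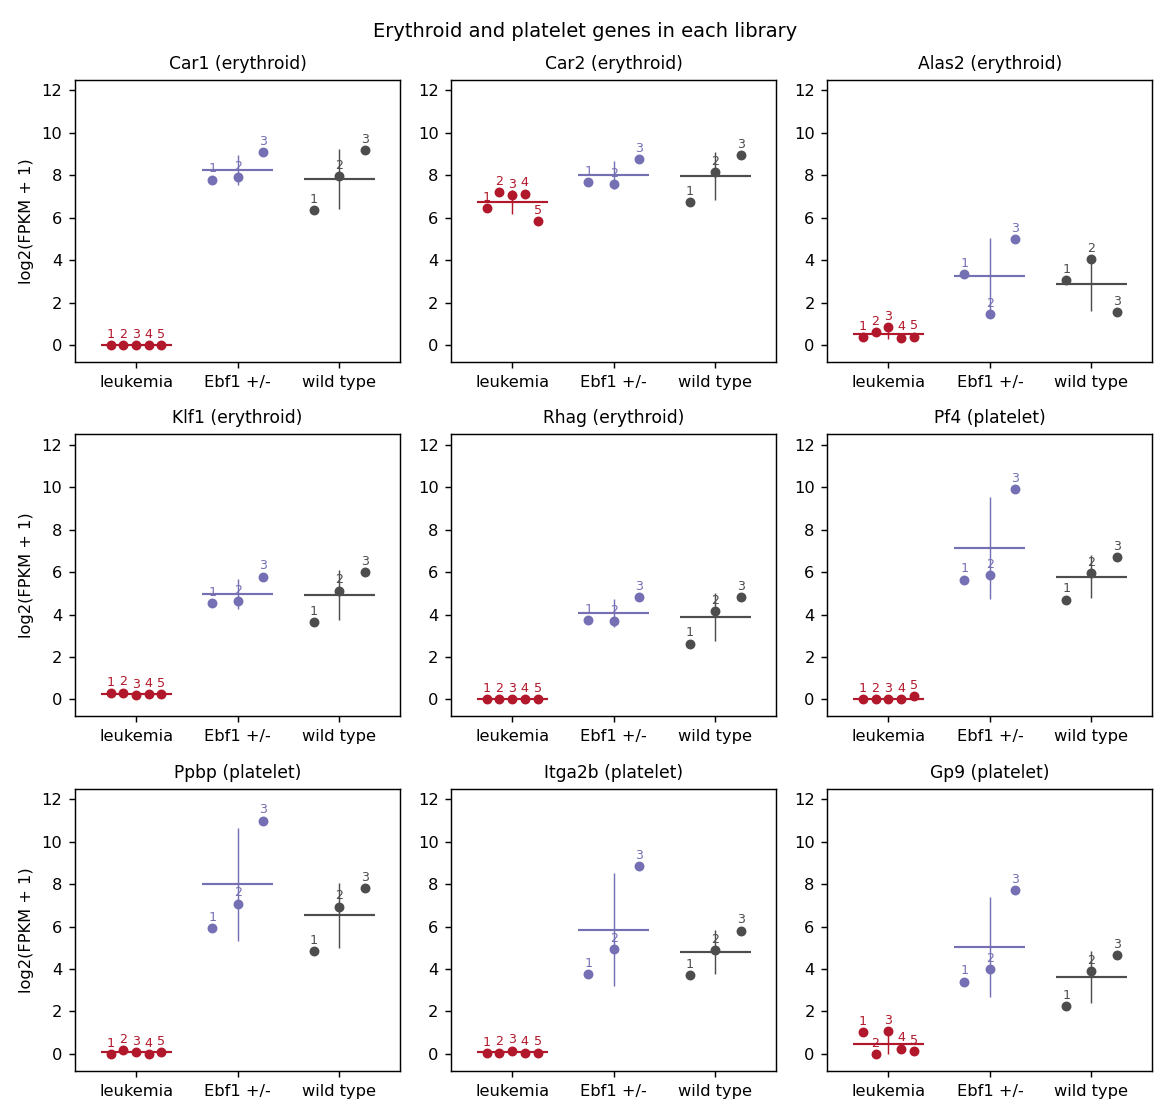
Each panel plots 1 gene as log2(FPKM + 1) in every library, with numbers giving the replicate, horizontal lines the group mean and vertical lines the SD (leukemia n = 5, Ebf1+/- n = 3, wild type n = 3). The leukemia points lie near 0 for 8 of the 9 genes and overlap the wild-type points for Car2, while Ebf1+/- replicate 3 stands highest in the 4 platelet panels.

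Klf1 is the transcription factor that drives erythroid maturation. It was at 0.230, 0.249, 0.158, 0.202 and 0.182 FPKM in the 5 leukemias, against 22.2, 23.5 and 54.5 FPKM in Ebf1+/- cells and 11.5, 34.0 and 62.3 FPKM in wild-type cells. The leukemia values rested on 3 to 5 reads each and lay below every progenitor library. In leukemia Klf1 fell by 4.65 on the log2(FPKM + 1) scale against wild-type cells (SE 0.42, limma adjusted p = 8.39e-05) and fell by 4.72 against Ebf1+/- cells (SE 0.28, adjusted p = 3.28e-05). That scale understates changes of low genes. Taken as pooled reads, the level was 189-fold lower than in wild-type cells, with a 95% exact binomial interval of 121 to 315 that covers counting error only. Wild-type replicate 3 held much of the wild-type reads, and without it the ratio was 114-fold. Without wild-type replicate 1 the log2 fold change was -5.29. The gene lies at chr8:84901928-84905291 (GRCm38, plus strand).

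Car1, a red cell carbonic anhydrase, was the most sharply divided gene. It had 0 reads in each of the 5 leukemias, against 221, 237 and 539 FPKM in Ebf1+/- cells and 81.3, 249 and 582 FPKM in wild-type cells. No progenitor library came near the leukemias, where 3 reads over the whole group would be 0.0392 FPKM. With those 3 reads as the floor, Car1 was at least 8359-fold lower in leukemia than in wild-type cells and at least 8361-fold lower than in Ebf1+/- cells. The first limit leaned on wild-type replicate 3, without which it was at least 4274-fold. Its log2 fold change was -7.84 against wild-type cells (SE 0.49, limma adjusted p = 1.28e-05), and 0 of the 10968 genes tested had a lower one. Against Ebf1+/- cells it was -8.26 (SE 0.27, adjusted p = 1.45e-06), with 3 genes lower. The value against wild-type cells was -8.57 without wild-type replicate 1 and -7.16 without replicate 3. The gene, at chr3:14766216-14808368 on the minus strand, overlaps the pseudogene Gm16399.

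Car2, a carbonic anhydrase found in red cells and in other tissues such as bone-resorbing osteoclasts, behaved differently. Its levels were 87.0, 147, 131, 139 and 56.5 FPKM in leukemias, 205, 193 and 437 FPKM in Ebf1+/- cells, and 105, 283 and 498 FPKM in wild-type cells. All leukemia values lay below the Ebf1+/- values, but 3 of the 5 lay above wild-type replicate 1. The leukemia mean of 112 ± 39.0 FPKM (SD, n = 5) was 40.4% of the Ebf1+/- mean and 38.0% of the wild-type mean. Against wild-type cells the log2 fold change was -1.21 (SE 0.48) and missed the threshold (limma adjusted p = 0.0692, range over the alternatives 0.00377 to 0.261). Without wild-type replicate 1 it was -1.82 (adjusted p = 0.00983), and without wild-type replicate 3 it was -0.70 (adjusted p = 0.261). Against Ebf1+/- cells Car2 fell by 1.28 (SE 0.37, adjusted p = 0.0376, range over the alternatives 0.0366 to 0.124). That call was held in 9 of 17 alternatives. It was lost without Ebf1+/- replicate 3 (-0.90, adjusted p = 0.124), without leukemia replicate 1 (adjusted p = 0.0767) and without leukemia replicate 3 (adjusted p = 0.0553). It was also lost with no filter on low values (0.0577), quantile scaling (0.0501), all groups in 1 fit (0.0728), array weights (0.0567) and the replicate block (limma adjusted p = 0.0706).

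The Car2 reads of the leukemias were plentiful, at 1325 to 3455 per library, in the same libraries that held 0 Car1 reads. Car2 lies at chr3:14886273-14900770 on the plus strand, 77905 bases above the highest coordinate of Car1. As Car1 is on the minus strand, the genes point away from each other. In the progenitors Car1 and Car2 were of similar level, with Car2 at 0.811 to 1.30 times Car1. The 6 osteoclast markers were uneven in the leukemias. Calcr was at 0 in all 11 libraries. Ocstamp, Dcstamp, Atp6v0d2 and Ctsk did not pass 0.0357, 0.0392, 0.0279 and 0.176 FPKM in any leukemia. The phosphatase Acp5, which other cells also make, went the other way, at 22.0 to 39.7 FPKM in leukemias. Which cells held the leukemic Car2 was not tested.

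Rhag, the Rh-associated glycoprotein of the red cell membrane, had 0 reads in the 5 leukemias. It was at 12.4, 11.8 and 27.4 FPKM in Ebf1+/- cells and 5.18, 16.7 and 27.4 FPKM in wild-type cells. The groups did not overlap, and the level in leukemia was at least 826-fold lower than in wild-type cells and at least 806-fold lower than in Ebf1+/- cells at the 3-read floor. Without wild-type replicate 3 the limit against wild-type cells was at least 528-fold. Rhag fell by 3.87 (SE 0.41, limma adjusted p = 0.000155) and fell by 4.08 (SE 0.27, adjusted p = 3.90e-05) on the log2(FPKM + 1) scale in these comparisons, and the value against wild-type cells was -4.49 without wild-type replicate 1. It lies at chr17:40811126-40840754 on the plus strand.

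Alas2 encodes the erythroid form of the first enzyme of heme synthesis. Its levels were 0.297, 0.540, 0.815, 0.273 and 0.317 FPKM in leukemias, 9.11, 1.76 and 31.0 FPKM in Ebf1+/- cells, and 7.29, 15.7 and 1.92 FPKM in wild-type cells. Every leukemia lay below every progenitor library, although Ebf1+/- replicate 2 and wild-type replicate 3 were within 1.76 to 1.92 FPKM. Alas2 fell by 2.36 against wild-type cells (SE 0.47, limma adjusted p = 0.00360) and fell by 2.75 against Ebf1+/- cells (SE 0.63, adjusted p = 0.0159). Pooled reads were 17.3-fold lower than in wild-type cells (interval 13.1 to 23.3), and 9.36-fold lower without wild-type replicate 2. The log2 fold change against wild-type cells was -1.78 without wild-type replicate 2 and -3.03 without replicate 3. The value against Ebf1+/- cells was -3.65 without Ebf1+/- replicate 2 and -1.88 without replicate 3 (limma adjusted p = 0.00132 and 0.0288). Alas2 (chrX:150547375-150570638, plus strand) overlaps Apex2 on the other strand, which stood at 4.86 to 7.89 FPKM in all 11 libraries. Whether the counting used strand is not stated, so the 5 to 20 Alas2 reads per leukemia cannot be separated from Apex2 reads.

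The 4 platelet genes were lower in leukemia in both comparisons. Pf4, the chemokine platelet factor 4, was at 0, 0, 0, 0 and 0.119 FPKM in leukemias, 49.3, 56.6 and 951 FPKM in Ebf1+/- cells, and 25.1, 60.2 and 103 FPKM in wild-type cells. A single read was counted over the 5 leukemias, and the pooled level was 2392-fold lower than in wild-type cells (interval 429 to 94556). Pf4 fell by 5.75 against wild-type cells (SE 0.36, limma adjusted p = 1.28e-05) and fell by 7.10 against Ebf1+/- cells (SE 0.83, adjusted p = 0.000645). Without Ebf1+/- replicate 3, the highest library, it fell by 5.72 against Ebf1+/- cells (SE 0.18, limma adjusted p = 2.28e-06), and without replicates 1 and 2 in turn the value was -7.84 and -7.74. The pooled ratio was 1559-fold without wild-type replicate 3, and without leukemia replicate 5, which held the single read, at least 611-fold.

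Ppbp, the precursor of a platelet granule chemokine, lies 2372 bases before Pf4, at chr5:90768518-90770063 against chr5:90772435-90773383, both on the plus strand. It was at 0, 0.141, 0.0746, 0 and 0.0646 FPKM in leukemias, 59.7, 134 and 2034 FPKM in Ebf1+/- cells, and 27.9, 122 and 223 FPKM in wild-type cells. The highest leukemia value was far below the lowest progenitor value, and all leukemias together held 4 reads, 2207-fold fewer per length and depth than wild-type cells (interval 861 to 8103). Ppbp fell by 6.46 against wild-type cells (SE 0.53, limma adjusted p = 5.22e-05) and fell by 7.92 against Ebf1+/- cells (SE 0.91, adjusted p = 0.000617). With Ebf1+/- replicate 3 left out it fell by 6.43 against Ebf1+/- cells (SE 0.29, limma adjusted p = 1.62e-05), and without Ebf1+/- replicate 1 the value was -8.96. Against wild-type cells it was -7.30 without wild-type replicate 1 and -5.82 without replicate 3. The pooled ratio was 1266-fold without wild-type replicate 3 and 3470.3-fold without leukemia replicate 2, which held 2 of the 4 reads.

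Itga2b and Gp9 encode adhesion receptor chains of the platelet surface, integrin alpha IIb (CD41), which binds fibrinogen, and glycoprotein IX, part of the receptor for von Willebrand factor. Itga2b was at 0.0342, 0.0444, 0.117, 0.0450 and 0.0406 FPKM in leukemias, 12.6, 29.6 and 463 FPKM in Ebf1+/- cells, and 12.3, 28.5 and 55.0 FPKM in wild-type cells. It fell by 4.73 against wild-type cells (SE 0.38, limma adjusted p = 4.50e-05) and fell by 5.78 against Ebf1+/- cells (SE 0.92, adjusted p = 0.00314). Itga2b fell by 4.27 against Ebf1+/- cells without their replicate 3 (SE 0.30, limma adjusted p = 9.66e-05), and without Ebf1+/- replicate 1 the value was -6.82. Its gene (chr11:102453297-102470122, minus strand) contains the small RNA gene Gm23563. Gp9 (chr6:87778072-87779768, plus strand) was at 1.01, 0, 1.09, 0.191 and 0.0861 FPKM in leukemias, 9.58, 14.8 and 209.5 FPKM in Ebf1+/- cells, and 3.78, 14.1 and 24.3 FPKM in wild-type cells. It fell by 3.12 against wild-type cells (SE 0.51, limma adjusted p = 0.00133) and fell by 4.55 against Ebf1+/- cells (SE 0.85, adjusted p = 0.00647). Gp9 fell by 3.21 against Ebf1+/- cells without their replicate 3 (SE 0.37, limma adjusted p = 0.00112), and without Ebf1+/- replicate 1 the value was -5.36. Against wild-type cells it was -3.80 without wild-type replicate 1. Gp9 kept the most reads of the platelet genes in leukemia, 21 in all, and was 35.5-fold lower than in wild-type cells as pooled reads (interval 23.0 to 58.0), against 596-fold for Itga2b (interval 341 to 1155). Without wild-type replicate 3 these ratios were 21.6-fold for Gp9 and 363-fold for Itga2b, and Gp9 was 59.5-fold lower without leukemia replicate 3, which held 11 of its 21 reads.

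The calls against Ebf1+/- cells depended on the fit. With limma-voom on reads recovered from the FPKM values, 8 of the 9 genes were called lower than in wild-type cells and 4 of the 9 (Car1, Car2, Klf1 and Rhag) lower than in Ebf1+/- cells. There the platelet genes had adjusted p-values of 0.0838 to 0.134 in voom, with log2 fold changes of -6.84 to -11.60, and Alas2 had 0.0760 (-4.27). Without Ebf1+/- replicate 3, 8 of the 9 genes were called, all but Car2.

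**Figure D2:**
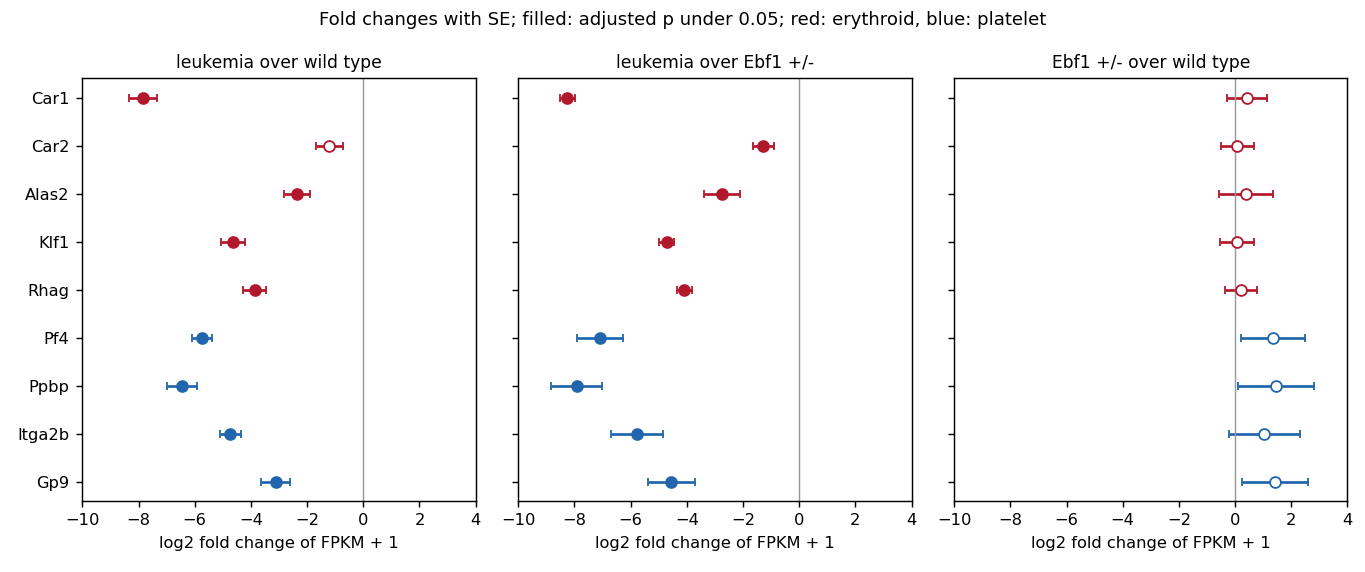
Points give the log2 fold change of FPKM + 1 of each gene in the 3 comparisons, bars its SE, with filled points past an adjusted p of 0.05, red for erythroid and blue for platelet genes. Car1 lies farthest left in both leukemia panels (-7.84 and -8.26), Car2 lies nearest 0 in them, and in the right panel 0 of the 9 genes is filled.

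Ebf1+/- and wild-type cells did not differ past the threshold for any of the 9 genes. Across all 11167 genes tested 0.0% were called in limma and 0 in voom, with 863 genes at an unadjusted p under 0.05. Other settings called a few genes, none of them among the 9: 11 higher and 12 lower with all groups in 1 fit, 5 and 8 with array weights, 4 and 1 without Ebf1+/- replicate 3, 1 and 2 with a pseudocount of 0.1, and 0 and 2 with median-ratio scaling. The erythroid log2 fold changes lay close to 0, at 0.07 for Car2 (SE 0.59, limma adjusted p = 0.978) and for Klf1 (SE 0.62, adjusted p = 0.981), 0.21 for Rhag, 0.38 for Alas2 and 0.42 for Car1. The platelet values were larger and less certain, at 1.05 for Itga2b (SE 1.26, limma adjusted p = 0.824), 1.35 for Pf4 (SE 1.15), 1.42 for Gp9 (SE 1.17) and 1.46 for Ppbp (SE 1.35). Groups overlapped for all 9 genes, where 8.10% of all genes lay wholly lower and 7.53% wholly higher in Ebf1+/- cells. Without Ebf1+/- replicate 3 the platelet values of this unpaired fit were -0.46 for Itga2b, -0.03 for Pf4, 0.08 for Gp9 and -0.03 for Ppbp. With the replicate numbers as a block the fold changes were as above and 0 of the 9 genes were called (limma adjusted p = 0.278 for Ppbp with SE 0.54, and 0.326 for Pf4). Per the submitters' processing notes, the Ebf1+/- libraries were aligned with other tools than the rest, and this cannot be told apart from genotype.

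Ebf1+/- replicate 3 carried 9.23 times the Pf4, 9.10 times the Ppbp, 8.41 times the Itga2b and 8.61 times the Gp9 of wild-type replicate 3, the next highest library. For the erythroid genes other than Alas2 it lay at or just below that library, with 0.926 times its Car1, 0.878 times its Car2, 0.874 times its Klf1 and 0.998 times its Rhag. In the replicates numbered 1, Ebf1+/- cells stood at 1.96 times wild-type cells for Pf4, 2.14 for Ppbp, 1.03 for Itga2b and 2.54 for Gp9, and in those numbered 2 at 0.939 for Pf4, 1.10 for Ppbp, 1.04 for Itga2b and 1.05 for Gp9. How often such ratios exceed 1 over all genes was not computed, and the pairing was taken from the same expression values. No common direction is therefore read from these ratios. The same library, Ebf1+/- replicate 3, also had the highest summed level of 16 platelet glycoproteins and receptors (1977 FPKM, against at most 252 FPKM in wild-type cells) and of 17 platelet granule and cytoskeleton genes (2918 FPKM, against at most 408 FPKM). Its B cell marker sum was the lowest of the 11 libraries, and the part of cell composition in these values was not tested.

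Across the 6 progenitor libraries, Car1, Car2, Klf1 and Rhag moved together. Car1 and Klf1 had the same order of libraries, lowest in wild-type replicate 1, then Ebf1+/- replicates 1 and 2, wild-type replicate 2, Ebf1+/- replicate 3 and wild-type replicate 3, and Car2 and Rhag differed from it by exchanging the neighbouring Ebf1+/- replicates 1 and 2. Per Klf1, Rhag varied between 0.440 and 0.558, Car2 between 7.99 and 9.22, and Car1 between 7.09 and 10.1. The largest ratio was thus 1.42 times the smallest for Car1, while Car1 itself spanned 7.16-fold between wild-type pools. The mean Car1 level of Ebf1+/- cells was 1.09 times that of wild-type cells, a smaller difference than between the wild-type pools themselves.

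Alas2 left this order. Per Klf1 it was 0.410, 0.0746 and 0.570 in Ebf1+/- cells and 0.636, 0.462 and 0.0308 in wild-type cells, a 20.7-fold span. Wild-type replicate 3, the highest library for Klf1 and Car1, was the second lowest for Alas2. Slc4a1, the anion exchanger of the mature red cell membrane, named after its values were seen, was low in the same libraries, at 12.2, 4.08 and 64.7 FPKM in Ebf1+/- cells and 12.1, 18.1 and 1.50 FPKM in wild-type cells. Per Alas2 it varied 2.96-fold. Neither gene was called between Ebf1+/- and wild-type cells.

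The platelet genes had their own order. From low to high it was wild-type replicate 1, Ebf1+/- replicate 1, wild-type replicate 2, Ebf1+/- replicate 2, wild-type replicate 3 and Ebf1+/- replicate 3 for Ppbp, Itga2b and Gp9, and for Pf4 only the 2 replicates numbered 2 changed places. Per Itga2b, Ppbp ran from 2.27 to 4.73, Pf4 from 1.87 to 3.90 and Gp9 from 0.308 to 0.758. Between the lineages the balance was less steady: Itga2b per Klf1 was 0.569, 1.26 and 8.50 in Ebf1+/- cells and 1.07, 0.839 and 0.883 in wild-type cells. The high ratio belonged to Ebf1+/- replicate 3 alone.

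**Figure D3:**
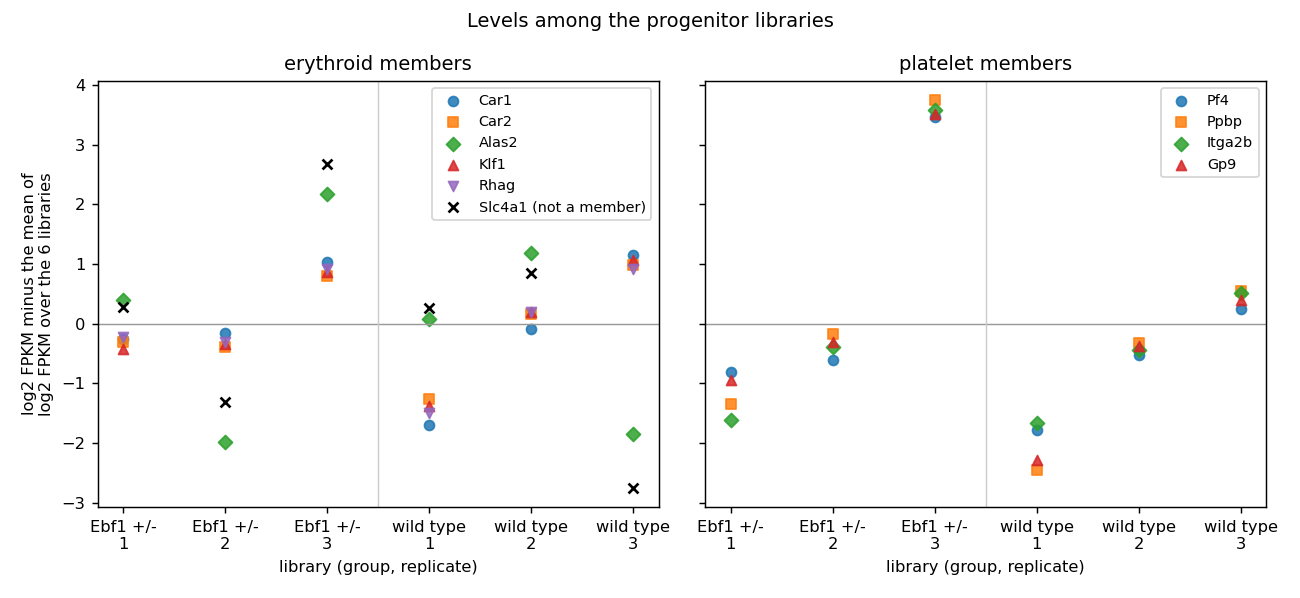
Points give each gene's log2 FPKM in a progenitor library minus its mean over the 6 libraries, with Ebf1+/- libraries left of the wild-type libraries. In the left panel Car1, Car2, Klf1 and Rhag cluster in each library while Alas2 and Slc4a1 part from them in Ebf1+/- replicate 2 and wild-type replicate 3, and in the right panel all 4 platelet genes peak in Ebf1+/- replicate 3.

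The genes of most similar pattern were ranked by Pearson correlation with the mean log2(FPKM + 1) of each group over the 6 progenitor libraries, among 8226 genes. For the erythroid group these were Hemgn, an erythroid nuclear protein (r = 0.989), Fech, the last enzyme of heme synthesis (r = 0.985), and Dcun1d1 (r = 0.983), whose level only ran from 15.9 to 18.4 FPKM. For the platelet group they were Srxn1, an enzyme of oxidant defence (r = 1.00), F2rl2, a thrombin receptor of mouse platelets (r = 0.999), and Slamf1, a surface receptor also known from stem cells (r = 0.998). Each of those 3 was highest in Ebf1+/- replicate 3, at 29.4, 77.1 and 31.7 FPKM, against at most 4.22, 8.62 and 4.36 FPKM in wild-type cells. These coefficients describe 6 pools that share that library, and nothing more.

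Other genes of the erythroid pathway were lower in leukemia too, beside backgrounds of 24.1% and 20.7% of genes called lower and higher against wild-type cells. Of 11 heme synthesis genes besides Alas2, 7 were called lower and 0 higher against wild-type cells, with a median log2 fold change of -0.61. Without wild-type replicate 3, 4 of the 11 were called lower. Cpox, a late enzyme of the pathway, averaged 12.6 ± 1.13 FPKM in leukemias, 40.8 ± 19.5 in Ebf1+/- cells and 43.7 ± 21.7 in wild-type cells (SD, n = 5, 3 and 3), and fell by 1.60 against wild-type cells (SE 0.27, limma adjusted p = 0.00169). Urod, the enzyme before it, averaged 41.2 ± 6.25 FPKM in leukemias, 71.6 ± 11.01 in Ebf1+/- cells and 64.4 ± 16.2 in wild-type cells, and fell by 0.61 (SE 0.18, limma adjusted p = 0.0213), a call lost without wild-type replicate 2 or 3. These enzymes were well above 0 in every leukemia, where Alas2 stayed below 1 FPKM. Fech kept 7.29 ± 2.23 FPKM in leukemias, against 24.0 ± 11.9 in Ebf1+/- cells and 21.1 ± 7.96 in wild-type cells.

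Of 15 erythroid membrane and cytoskeleton genes tested, 12 were called lower and 0 higher against wild-type cells (median -2.83), where 24.1% and 20.7% of all genes were. Aqp1, the water channel of red cells, averaged 0.939 ± 0.845 FPKM in leukemias, 111 ± 80.3 in Ebf1+/- cells and 103 ± 76.6 in wild-type cells. Ermap, an erythroblast membrane protein, averaged 0.0505 ± 0.0384 FPKM in leukemias, 34.0 ± 25.4 in Ebf1+/- cells and 38.5 ± 31.6 in wild-type cells. Both fell, with log2 fold changes of -5.53 for Aqp1 and -4.86 for Ermap (limma adjusted p = 9.07e-05 and 0.000103). Tfrc, the transferrin receptor that dividing cells of many kinds use, did not pass the test (0.55, adjusted p = 0.301). Of 16 late erythroid enzymes and regulators, 12 were lower and 2 higher (median -1.62). Blvrb, a reductase of red cells, and Cd24a, which B cells also carry, fell (-3.56 and -1.83), while Prdx2 rose by 0.36 and Ldb1, named for its direction, by 0.28 (limma adjusted p = 0.0485 and 0.0461), and both of these higher calls were lost on leaving out any of 6 of the 8 libraries. Gata1, the regulator shared by both lineages and named after its values were seen, averaged 0.0834 ± 0.129 FPKM in leukemias, 39.9 ± 35.5 in Ebf1+/- cells and 26.9 ± 20.5 in wild-type cells (-4.38, adjusted p = 0.000133).

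Globin genes were listed at or near 0 in all libraries. Hba-a1, Hba-a2, Hbb-bs, Hbb-bt, Hbb-b1 and Hbb-b2, the adult globins of red cells, were listed at 0 in all 11 libraries, also in progenitor libraries with 81.3 to 582 FPKM of Car1. The values above 0 turned into whole reads, so a listed 0 is taken as 0 assigned reads. These genes have near-identical copies, and how such reads were counted is not given in the sources used here. No level of globin RNA is therefore read from a listed 0.

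The platelet lists followed the platelet genes. Against wild-type cells, 13 of 15 platelet glycoproteins and receptors were called lower and 2 higher (median -2.24), and 12 of 14 platelet granule and cytoskeleton genes lower and 1 higher (median -3.02). Over all genes tested, 24.1% were called lower and 20.7% higher. Without wild-type replicate 3, 8 of the glycoproteins and receptors passed the filter, of which 6 were lower and 2 higher. Gp5, a partner of Gp9, averaged 0.194 ± 0.176 FPKM in leukemias, 76.3 ± 114 in Ebf1+/- cells and 15.9 ± 12.7 in wild-type cells. Itgb3, the beta chain that pairs with Itga2b, averaged 0.438 ± 0.384 FPKM in leukemias, 138 ± 209.7 in Ebf1+/- cells and 28.1 ± 18.3 in wild-type cells. Both fell, with log2 fold changes of -3.50 and -4.15 (limma adjusted p = 0.000506 and 0.000101). Cd9 (-3.77), Thbs1 (-4.17), Tubb1 (-4.70) and Plek (-2.21) fell as well. The 3 genes called higher, named for that direction, were P2ry12 (1.48), Tbxa2r (1.93) and Rgs18 (0.97), which are not confined to platelets. The Rgs18 call was lost on leaving out any of 4 libraries.

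Against Ebf1+/- cells the calls lower and higher were 7 and 0 of 11 for heme synthesis, 13 and 0 of 15 for erythroid membrane, 11 and 0 of 16 for late erythroid genes, 13 and 1 of 16 for platelet glycoproteins, and 11 and 0 of 14 for platelet granule genes, where 12.3% and 9.31% of all genes were called lower and higher. Without Ebf1+/- replicate 3, 10 platelet glycoproteins passed the filter, of which 8 were lower and 1 higher. Between Ebf1+/- and wild-type cells 0 genes of these lists were called. There, 16 of 16 platelet glycoproteins and 15 of 16 platelet granule genes had positive log2 fold changes (medians 1.12 and 1.05, against 0.03 over all genes). Without Ebf1+/- replicate 3, 3 of 15 in each list were positive and the medians were -0.19 and -0.32, so the direction of both lists turned on that library.

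Markers of granulocytes, another bone marrow lineage, were lower in the same contrast. All 14 granulocyte markers were called lower in leukemia against each progenitor group, with medians of -7.18 against Ebf1+/- cells and -5.65 against wild-type cells. Over all genes tested, 12.3% and 24.1% were called lower in these comparisons. Most of the 14 passed the filter on low values only through the progenitors (leukemia means of 0 FPKM for Fcnb and 0.0447 FPKM for Mpo). Their count is thus no separate support. Their summed level was 3.94 to 9.83 FPKM in leukemias, 2820 to 11003 FPKM in Ebf1+/- cells and 669 to 3518 FPKM in wild-type cells, and 1 of the 14 (Fcnb) was at 0 in every leukemia. S100a8, S100a9 and Ngp, the most abundant of them in progenitors, fell against wild-type cells, with log2 fold changes of -6.86 to -7.20. Within the progenitors the granulocyte sum did not follow the erythroid sum. It was 11003, 2820 and 4068 FPKM in Ebf1+/- cells and 3518, 1881 and 669 FPKM in wild-type cells, while the 5 erythroid genes summed to 469.9, 467 and 1088 FPKM in Ebf1+/- cells and 211, 598 and 1171 FPKM in wild-type cells. The part of other bone marrow cells in the levels of the 9 genes was not tested.

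**Figure D4:**
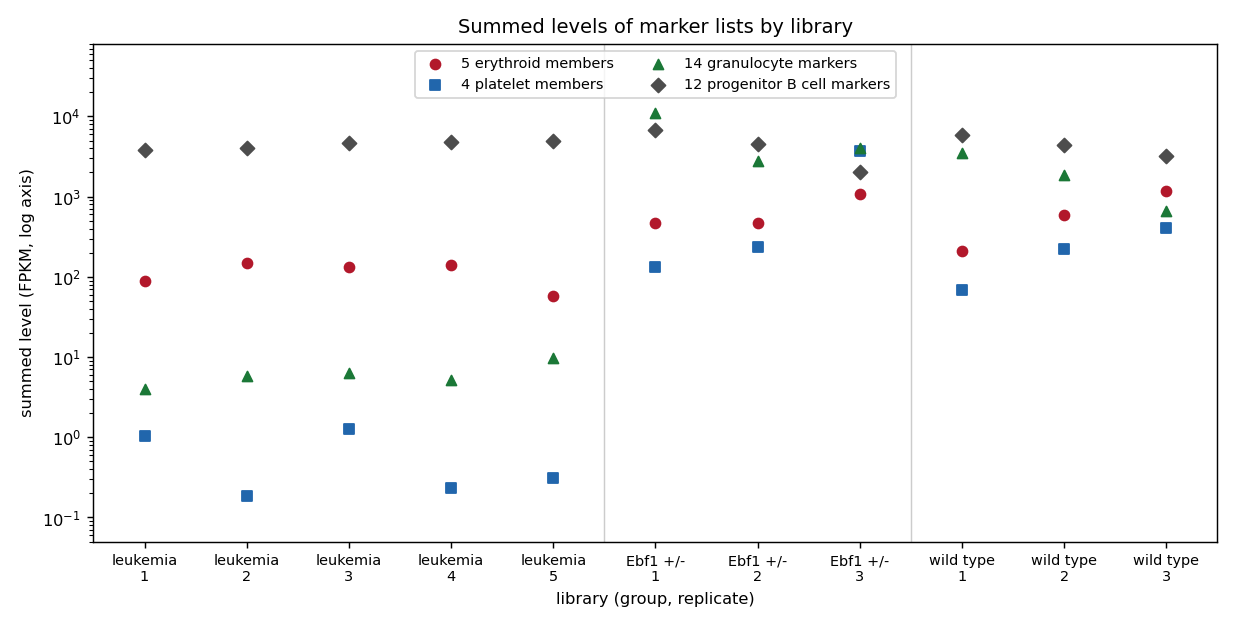
Points give the summed FPKM (log axis) of the erythroid genes, the platelet genes, 14 granulocyte markers and 12 progenitor B cell markers in each of the 11 libraries. The B cell markers stay between 2025 and 6677 FPKM in all libraries, while in leukemias the platelet genes sum to at most 1.29 FPKM, and the erythroid genes to 57.0 to 148 FPKM, nearly all of it Car2.

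Other cell types were represented by few tested markers. Against wild-type cells, where 24.1% of all genes were called lower and 20.7% higher, 2 of 4 monocyte and macrophage, 1 of 2 osteoclast, 2 of 3 mast cell and basophil, 2 of 4 stem and early progenitor, 0 of 6 T cell, 1 of 4 NK cell and 2 of 2 lymph node stroma markers were called lower, and 1 NK cell marker (Klrd1) higher. Against Ebf1+/- cells, where 12.3% were called lower and 9.31% higher, 3 of 5 monocyte and macrophage, 0 of 1 osteoclast, 3 of 4 mast cell and basophil, 3 of 5 stem and early progenitor, 2 of 7 T cell, 3 of 6 NK cell and 2 of 2 stroma markers were called lower, and 0 higher. By abundance in progenitors Lyz2, Ccr2 and Cd68 led the monocyte list, Acp5, Ctsk and Atp6v0d2 the osteoclast list, Kit, Prss34 and Gata2 the mast cell list and Kit, Cd34 and Slamf1 the stem cell list. Lat, Cd4 and Cd3g led the T cell list, Nkg7, Gzma and Klrd1 the NK cell list, and Pecam1, Col1a1 and Cdh5 the stroma list. Gata2, a regulator of early progenitors and mast cells that megakaryocytes also use, was at 0 in all 5 leukemias, against means of 8.56 FPKM in Ebf1+/- cells and 3.48 FPKM in wild-type cells. Kit, a receptor of early progenitors, averaged 19.0 FPKM in leukemias, 24.4 FPKM in Ebf1+/- cells and 19.5 FPKM in wild-type cells and was called in neither comparison. The B cell list was led by Cd79a, Vpreb3 and Cd79b. Of its 12 markers, 4 were lower (Cd79b, Ebf1, Pax5 and Rag2) and 2 higher (Igll1 and Vpreb1) than in wild-type cells, and 0 lower and 1 higher (Il7r) than in Ebf1+/- cells. These calls were few, and the lower calls and the Il7r call moved with single libraries. Without wild-type replicate 1, 0 of the 12 were called lower than in wild-type cells. The Il7r call was lost without Ebf1+/- replicate 3 or leukemia replicate 3. Whichever library was left out, 2 of the 12 were called higher than in wild-type cells. On leaving out 1 library, 0 to 4 T cell markers were called lower than in Ebf1+/- cells.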

How the data were processed

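The authors deposited FPKM values of all 11 libraries in 1 table. Per the submitters' processing notes, the leukemia and wild-type libraries used BWA 0.7.12 and the Ebf1+/- libraries TopHat2 and Cufflinks, on mm10 (GRCm38). No source used here gives the counting tool or the gene models. Fitting a length per gene and a total per library turned the values of all 17380 genes above 0 into whole reads, within 0.005 read. Tests were run on log2(FPKM + 1) in limma 3.58.1 (R 4.3.3, trended eBayes, two-sided), on the 2 groups compared and on genes averaging 1 FPKM or more across them. P-values were adjusted over all those genes by Benjamini and Hochberg and called at 0.05. The test was tried on simulated data first.

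Reads carry no molecular identifiers, so intervals and the floor of 3 reads cover counting error only. Gene coordinates are from GENCODE M21, to which 95.4% of identifiers matched. The members and lists were chosen with earlier results of these data known. Named from each other list were the 3 genes with the highest mean FPKM over the 6 progenitor libraries (1 such gene is not reported here), and the genes of most similar pattern were taken by correlation. Same-numbered Ebf1+/- and wild-type libraries deviated together from their group means (r = 0.652, 0.325 and 0.69), all above 0.1. On that ground they were taken as pairs in the replicate block and in the ratios between same-numbered libraries. The main fit was unpaired. No label gives a shared day, and the pairing rests on the same expression values, so it is not independently known. Leukemias showed -0.136 to 0.072 and were not paired. The labels give mice per library and nothing on litters, so p-values rest on the spread between these mice and pools. Each fit takes a common spread per gene for both groups. For genes at or near 0 in every leukemia, SE and p-values therefore understate the spread between progenitor pools. Car1, for example, had an SD of 0 FPKM in leukemias and 255 FPKM in wild-type cells. Alternatives were another pseudocount, filters, scalings, fits, a replicate block and leaving out each library. Leaving out libraries for lists, pooled read ratios and limits was added after the data were seen. Figures used Python 3.11.15 and Matplotlib 3.10.9.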

Additional observations from a re-analysis of the deposited data

Results flagged for a closer look

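Among the 7 sets of leukemia levels with any value above 0, 2 single libraries lay far from the other 4 by Dixon's criterion. Its rate of about 1 of 20 groups by chance is meant for continuous values. It does not hold for counts of a few reads, where 1 read in 1 library always meets the criterion. Pf4 was at 0.119 FPKM in leukemia replicate 5, from 1 read, with 0 reads in the other 4 leukemias. Itga2b was at 0.117 FPKM in leukemia replicate 3, from 5 reads, against 0.0342 to 0.0450 FPKM from 1 to 2 reads in the others. Both values are far below the lowest progenitor values, 25.1 FPKM for Pf4 and 12.3 FPKM for Itga2b, and rest on too few reads to separate these leukemias from the rest.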

How the results depend on the processing

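Against wild-type cells, 7 to 9 genes were called lower in leukemia under every alternative. The lowest count came from a filter at 5 FPKM, which left Alas2 untested. Car2 was also called with array weights (-1.45, limma adjusted p = 0.00377). Against Ebf1+/- cells, voom on recovered reads called 4, and the other alternatives 7 to 9, with 8 to 9 on leaving out 1 library. The cause of the voom count was not tested. The replicate block called 7 there (Car2 adjusted p = 0.0706 and Alas2 0.0623 were lost), although leukemias share only numbers with those pools. It changed no other call of the 9 genes, and for Ebf1+/- against wild-type cells, where numbers were taken as pairs, the block called 0 (lowest adjusted p = 0.277, for Gp9). Array weights called 7 against Ebf1+/- cells, without Car2 (0.0567) and Alas2 (0.0552).

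Between Ebf1+/- and wild-type cells, 0 genes were called under any of the 15 alternatives, and several log2 fold changes turned sign. Quantile scaling gave -0.079 for Car2. Array weights gave -0.22 for Car2, -1.06 for Alas2, -0.20 for Klf1 and -0.13 for Rhag. On leaving out 1 library the values ran from -0.32 to 1.09 for Car1, -0.54 to 0.58 for Car2, -0.49 to 1.28 for Alas2, -0.57 to 0.60 for Klf1, -0.41 to 0.69 for Rhag, -0.032 to 2.09 for Pf4, -0.033 to 2.50 for Ppbp and -0.46 to 2.09 for Itga2b. The medians of the platelet lists, left-out values chosen after the data were seen, ran from -0.19 to 2.00 for glycoproteins and receptors and from -0.32 to 1.91 for granule and cytoskeleton genes. The cause of these turns was not tested. Over all genes, quantile scaling moved the calls higher and lower to 2626 and 2382 against wild-type cells (2267 and 2647 as deposited), and to 1538 and 1139 against Ebf1+/- cells (1039 and 1370), with 8 of the 9 genes still called lower in both. Depth limits values below about 3 reads per library, which covers Car1 and Rhag in all 5 leukemias and Pf4, Ppbp, Itga2b and Gp9 in most of them.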
